A study of Mus musculus with 9 samples.

Results

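The 10 genes described here are the transcription factors that set photoreceptor and rod fate in the mouse retina: *Nrl*, *Nr2e3*, *Crx*, *Otx2*, *Rorb*, *Neurod1*, *Mef2c*, *Esrrb*, *Prdm1* and *Casz1*. They were taken by gene symbol from a table of 55487 genes, each symbol matched 1 gene, and all 10 were among the 21330 genes that passed the filter on low values. Their levels were compared between whole retinas of 3 genotypes at postnatal day 21 (P21), an age at which rods and cones have been born.

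Photoreceptor precursors are set apart from other retinal neurons by OTX2, which acts upstream of CRX, and both homeodomain proteins are used by rods and cones. RORB and NEUROD1 support the same precursor stage, and PRDM1 is a repressor that appears transiently in precursors and holds them back from bipolar fate. NRL then directs a precursor to become a rod, and NR2E3, its nuclear receptor partner, represses cone genes in rods, whereas precursors without NRL develop as cones.

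TET enzymes oxidize 5-methylcytosine, the methylated base found mainly at CpG dinucleotides, as a step of active DNA demethylation. The study compared retinas with and without them to ask how their loss changes transcript levels in mature retina. Each genotype has 3 RNA-seq libraries, with retinas from a pair of animals pooled per library. The labels give the strain as C57 BL/6J and the tissue as whole retina for all 9 libraries.

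Cre− controls are given as WT and came from Cre− breeders. The tHet retinas carried a heterozygous floxed allele of *Tet1*, *Tet2* and *Tet3* together with the Chx10-Cre-GFP transgene, and Tet tcKO retinas carried the same transgene with both alleles of all these genes floxed. Chx10-Cre-GFP is active in retinal progenitor cells and is known to be mosaic, which the study addressed by in-crossing Cre-positive animals for the tHet and Tet tcKO groups. Cre− retinas therefore differ from the others in breeding line and in the transgene as well as in *Tet* alleles, and these cannot be told apart in a comparison with Cre−. In whole tissue, fewer cells of a type and less RNA per cell cannot be told apart either.

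Values are CPM, the reads assigned to a gene as a share of all reads assigned to genes in that library, scaled to a fixed total; the libraries held 9627927 to 21108256 such reads. Tet tcKO replicate 3 stood apart, because a single ribosomal RNA gene, CT010467.1, took 28.7% of its reads, against 3.72% in tHet replicate 3 and 0.0409% to 0.226% in the other 7 libraries. Without that gene in the totals, the median difference over all genes tested moved from 0.0012 to 0.14 on the log2 scale in Tet tcKO versus Cre−, so each member is also given without that gene in the totals. *Tet3* read 213, 268 and 223 CPM in Cre− and 108, 152 and 99.2 CPM in Tet tcKO (log2 difference −0.99, adjusted p = 0.0174). *Tet1* (0.22) and *Tet2* (0.25) differed less on that scale, and counts over whole genes include exons outside the floxed ones, so they do not check the deletion.

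Rod transcription factors were lower and the precursor repressor *Prdm1* was higher in Tet tcKO retinas. *Nrl* fell 5.17-fold, *Nr2e3* 4.62-fold and *Esrrb* 9.83-fold against Cre−, while *Prdm1* rose 3.54-fold. The factors that rods and cones share, *Crx*, *Otx2* and *Neurod1*, did not pass the test, nor did *Rorb*, *Mef2c* and *Casz1*. A gene was called where limma gave a log2 difference of at least 1 in size and an adjusted p under 0.01; folds are on the log2(CPM + 0.5) scale, which understates changes of low genes. Against Cre−, 3 members were called lower (1.57% of all genes tested were) and 1 was called higher (2.03%), so 4 of 10 were called where the background was 3.60%. The same 4 were called against tHet, where the background was 3.00% in all, with 1.61% lower and 1.39% higher. Over all genes, 2.30% were called in 1 direction against both controls, and these comparisons share the Tet tcKO libraries. The median difference of the 10 members was −0.67 against Cre− and −0.64 against tHet, beside 0.0012 and −0.06 over all genes tested.

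**Figure D1:**
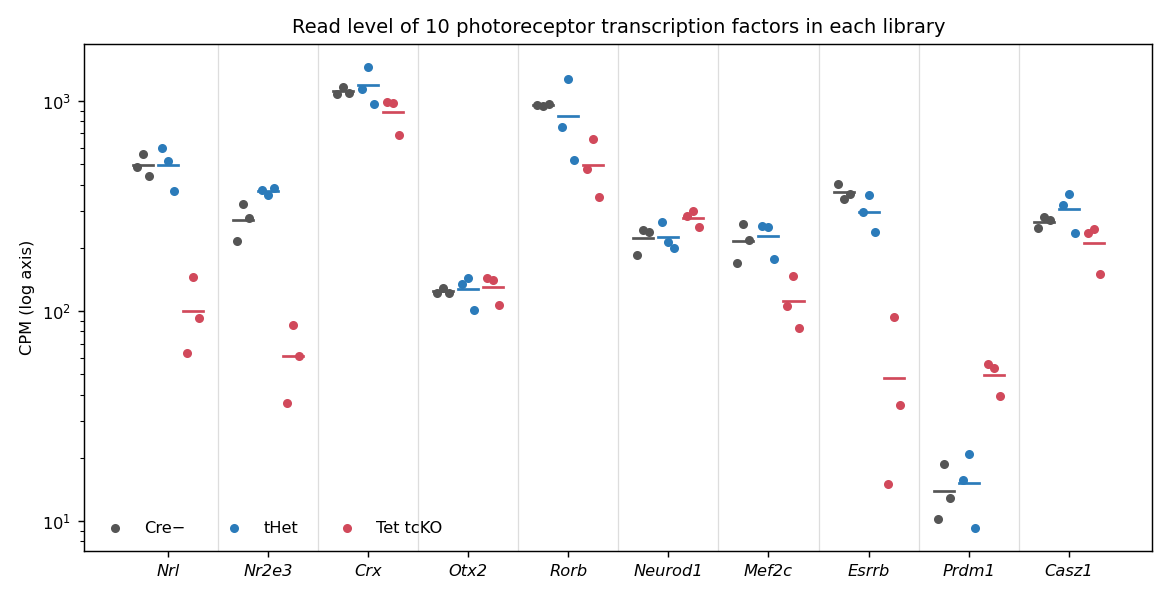
CPM of each of the 10 transcription factors on a log axis, with 1 point per library, a bar at the mean of the 3 libraries of a genotype, and genotypes in grey (Cre−), blue (tHet) and red (Tet tcKO). The 3 Tet tcKO points of Nrl, Nr2e3 and Esrrb lie below every control point, those of Prdm1 lie above every control point, and those of Otx2 lie among the controls.

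The stretches upstream of 4 members are printed because their genes behaved differently: *Nr2e3* and *Esrrb* were lower, *Prdm1* was higher and *Crx* was not called. They come from the RefSeq promoter table for GRCm38.p6, run 5′ to 3′ on the strand of the gene and carry CpG dinucleotides in capitals. The *Nr2e3* stretch is chr9:59950118-59950329 on the minus strand, the *Crx* stretch chr7:15879969-15880205 on the minus strand, the *Esrrb* stretch chr12:86421394-86421643 on the plus strand and the *Prdm1* stretch chr10:44458749-44458998 on the minus strand. Each was taken from the 250 bases before a start site, and bases inside an annotated exon of the gene were left out, 38 for *Nr2e3* and 13 for *Crx*.
Nr2e3: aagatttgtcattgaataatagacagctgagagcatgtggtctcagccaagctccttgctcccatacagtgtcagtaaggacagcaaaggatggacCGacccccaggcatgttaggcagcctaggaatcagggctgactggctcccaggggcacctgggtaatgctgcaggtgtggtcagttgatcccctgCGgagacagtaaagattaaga
Crx: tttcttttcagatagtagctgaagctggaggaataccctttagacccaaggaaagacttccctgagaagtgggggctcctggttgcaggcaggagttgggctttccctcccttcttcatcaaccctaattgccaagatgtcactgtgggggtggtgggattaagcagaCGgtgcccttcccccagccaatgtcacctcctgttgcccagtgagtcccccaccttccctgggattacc
Esrrb: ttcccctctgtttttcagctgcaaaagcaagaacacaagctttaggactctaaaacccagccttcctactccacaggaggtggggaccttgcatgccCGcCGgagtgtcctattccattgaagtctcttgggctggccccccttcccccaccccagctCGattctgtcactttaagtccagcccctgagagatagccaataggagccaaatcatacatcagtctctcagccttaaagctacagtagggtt
Prdm1: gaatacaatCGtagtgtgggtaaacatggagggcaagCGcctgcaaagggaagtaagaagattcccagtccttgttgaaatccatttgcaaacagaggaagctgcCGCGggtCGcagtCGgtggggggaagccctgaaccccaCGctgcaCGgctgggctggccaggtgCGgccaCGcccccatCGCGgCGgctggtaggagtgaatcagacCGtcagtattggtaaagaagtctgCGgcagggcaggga

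CpG content differed among these stretches. Over the full windows of 250 bases, *Prdm1* had 15 CpGs, *Nr2e3* and this start site of *Esrrb* had 3 each, *Nrl* had 2 and *Crx* had 1, against a median of 6 and quartiles of 2 and 16 over 32851 such windows of the table. *Esrrb* has another start site, at the annotated start of the gene, whose window had 6 CpGs. All 250 bases of the *Nrl* window lie inside an exon of *Nrl* in the GENCODE annotation, and are not printed. Among members that were not called, the count ran from 1 in *Crx* through 6 to 14 at the start sites of *Otx2* and 22 in *Neurod1* to 27 at a start site of *Casz1*. The letters TAATCC, bound by CRX and OTX2, were found at 94 and 21 bases before the start site of *Crx*. They lay on the strand opposite to the gene, so the printed stretch reads GGATTA there. TAATCC was also found in a window each of *Casz1* and *Otx2*, and on either strand in 6.25% of all windows. CAGATG, an E-box of the kind NEUROD1 binds, lay 19 bases before the start site of *Nrl*, was also found at *Otx2* and *Mef2c*, and occurred in 14.4% of windows. The letters TGCTGA (16.1% of windows), AGGTCA (14.0%), AAGTCA (13.1%) and GAAAGT (12.3%), which are parts of the motifs of NRL, nuclear receptors, NR2E3 and PRDM1, were not in the windows of *Nrl*, *Nr2e3*, *Crx* or *Prdm1*. Windows of the other members held some of them: TGCTGA at *Otx2*, *Rorb*, *Neurod1* and *Mef2c*, AGGTCA at *Mef2c* and *Casz1*, AAGTCA at *Esrrb*, and GAAAGT at *Neurod1*, *Mef2c* and *Esrrb*. The *Esrrb* matches lay in the window of its other start site, chr12:86360867-86361116, and not in the printed stretch. All matches were sought on both strands and describe letters only. AGGTCA is contained in AAGGTCA, which was searched too (4.08%).

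*Otx2* (ENSMUSG00000021848.16, minus strand of chromosome 14, 48657677 to 48673819 on GRCm38), which starts the photoreceptor programme and is also used by bipolar cells, read 122, 129 and 122 CPM in Cre−, 135, 144 and 102 in tHet and 144, 141 and 107 in Tet tcKO. The genotypes overlapped, with replicate 3 the lowest library of both tHet and Tet tcKO. The log2 difference was 0.06 against Cre− (95% confidence interval −0.38 to 0.50, adjusted p = 0.961) and 0.05 against tHet (−0.39 to 0.49, adjusted p = 0.944). Without CT010467.1 in the totals the Tet tcKO libraries read 144, 141 and 151 CPM, above every Cre− library, but still overlapping tHet, and the log2 differences were 0.22 (adjusted p = 0.371) and 0.19 against tHet (adjusted p = 0.431). Of the exonic bases of *Otx2*, 168 (3.98%) overlap Gm49154 on the same strand.

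*Crx* (ENSMUSG00000041578.15, minus strand of chromosome 7, 15865947 to 15879968), the homeodomain activator of rod and cone genes, read 1084, 1159.8 and 1086 CPM in Cre−, 1145, 1449.7 and 972 in tHet and 991, 982 and 690.0 in Tet tcKO. All Tet tcKO libraries lay below the lowest Cre− library, and the highest of them was just above the lowest tHet library. The differences were −0.34 against Cre− (−0.90 to 0.22, adjusted p = 0.665) and −0.42 against tHet (−0.98 to 0.14, adjusted p = 0.469), and neither was called. Without CT010467.1 in the totals the Tet tcKO libraries came to 992, 982 and 968 CPM, below every library of both controls, and the log2 differences were −0.18 (adjusted p = 0.606) and −0.28 (adjusted p = 0.369).

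*Rorb* (ENSMUSG00000036192.15, minus strand of chromosome 19, 18930605 to 19111196), an orphan nuclear receptor that acts upstream of *Nrl* and is also used by amacrine and horizontal cells, read 952, 942 and 971 CPM in Cre−, 751, 1274 and 523 in tHet and 474, 659 and 348 in Tet tcKO. The Cre− libraries were close together and all above Tet tcKO, whereas the tHet libraries were spread widely and overlapped both. The log2 difference from Cre− was −1.0 (SE 0.31, 95% confidence interval −1.64 to −0.36), with an adjusted p of 0.0566 that missed the threshold. Against tHet it was −0.73 (−1.37 to −0.09, adjusted p = 0.199). Leaving CT010467.1 out of the totals put Tet tcKO at 475, 659 and 488 CPM, with the same order and differences of −0.84 (adjusted p = 0.0667) and −0.59 (adjusted p = 0.193).

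*Neurod1* (ENSMUSG00000034701.9, minus strand of chromosome 2, 79452521 to 79456751), a basic helix-loop-helix factor needed by photoreceptors for their survival, read 185, 244 and 238 CPM in Cre−, 264, 213 and 199 in tHet and 285, 298 and 252 in Tet tcKO. All Tet tcKO libraries were above all Cre− libraries, but the lowest of them was below the highest tHet library. The differences, 0.33 against Cre− (−0.12 to 0.78, adjusted p = 0.542) and 0.31 against tHet (−0.14 to 0.76, adjusted p = 0.515), were not called. That overlap with tHet rested on the scaling of Tet tcKO replicate 3, since with CT010467.1 left out Tet tcKO read 285, 298 and 354 CPM and was above every tHet library too. The differences were then 0.49 (adjusted p = 0.0753) and 0.46 (adjusted p = 0.1015), neither of them called. *Cerkl* shares 201 bases with *Neurod1* exons on the same strand (7.37% of them), and the values cannot be split between the genes there.

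*Nrl* (ENSMUSG00000040632.16, minus strand of chromosome 14, 55518978 to 55524981), the basic leucine zipper factor that rods require, read 484, 558 and 441 CPM in Cre− and 598, 519.9 and 373 CPM in tHet. In Tet tcKO it read 63.4, 144 and 92.4 CPM, so the highest mutant library was below the lowest control library of either kind. Means were 494 ± 59.1, 497 ± 114 and 100.1 ± 41.1 CPM for Cre−, tHet and Tet tcKO, respectively (± SD, n = 3). The log2 difference was −2.37 (SE 0.27, adjusted p = 9.15e-06) against Cre− and −2.36 (SE 0.27, adjusted p = 1.25e-05) against tHet. Leaving out Tet tcKO replicate 3 gave −2.35 (adjusted p = 0.00221) and −2.34 (adjusted p = 0.00263), and leaving CT010467.1 out of the totals gave −2.21 (adjusted p = 0.000377) and −2.22 (adjusted p = 0.000438).

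*Nr2e3* (ENSMUSG00000032292.8, minus strand of chromosome 9, 59942771 to 59960659), the orphan nuclear receptor that represses cone genes in rods, read 215, 322 and 277 CPM in Cre− and 377, 355 and 383 CPM in tHet. It read 36.5, 85.7 and 60.9 CPM in Tet tcKO, below every library of both controls. The log2 difference was −2.21 (SE 0.26, adjusted p = 1.45e-05) against Cre− and −2.68 (SE 0.26, adjusted p = 1.57e-06) against tHet. With CT010467.1 out of the totals these were −2.05 (adjusted p = 0.000697) and −2.54 (adjusted p = 0.000199), and both calls stood. Gm15507 shares 61 of its exonic bases on the same strand (1.81%). *Nr2e3* and *Nrl* were both highest in replicate 2 and lowest in replicate 1 among the Tet tcKO libraries.

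*Esrrb* (ENSMUSG00000021255.17, plus strand of chromosome 12, 86361117 to 86521628), an orphan nuclear receptor that supports rod gene expression and rod survival, read 404, 343 and 360.1 CPM in Cre− and 297, 355 and 238 CPM in tHet. In Tet tcKO it read 15.0, 93.6 and 35.7 CPM, all below the controls but widely spread among themselves. The log2 difference was −3.30 (SE 0.40, adjusted p = 1.62e-05) against Cre− and −2.97 (SE 0.40, adjusted p = 6.7e-05) against tHet. Without Tet tcKO replicate 3 the call against tHet was lost, at −2.94 with an adjusted p of 0.0131, while the call against Cre− stood at −3.27 (adjusted p = 0.00682). Both calls stood with CT010467.1 out of the totals, at −3.14 (adjusted p = 0.0012) and −2.83 (adjusted p = 0.00277).

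*Mef2c* (ENSMUSG00000005583.16, plus strand of chromosome 13, 83504034 to 83667080), a MADS-box factor found at regulatory sites of rods and used by other cells too, read 169.7, 260.5 and 217 CPM in Cre− and 255, 250.1 and 177 CPM in tHet. It read 106, 146 and 82.6 CPM in Tet tcKO, below every control library. The log2 difference was −0.97 (95% confidence interval −1.48 to −0.45, adjusted p = 0.0187) against Cre− and −1.04 (−1.56 to −0.53, adjusted p = 0.0123) against tHet, so it was not called in either. The libraries that entered changed the call, and so did a fit with replicate number as a block against tHet. Other types of fit changed the adjusted p. With all 9 libraries, TMM scaling, edgeR and DESeq2 gave adjusted p of 0.00185, 0.00266 and 2.65e-07 against Cre−. There the differences of −0.955, −0.958 and −0.964 missed only the fold threshold. Against tHet the adjusted p was 0.00182, 0.00269 and 1.9e-07, and differences of −0.974, −0.975 and −0.979 missed that threshold too. Leaving out Tet tcKO replicate 2 gave −1.18 (adjusted p = 0.00666) and −1.26 (adjusted p = 0.0041), and leaving out Cre− replicate 1 gave −1.13 (adjusted p = 0.00838) against Cre−. *Mef2c* was also called against tHet without Cre− replicate 1 (adjusted p = 0.00549), Cre− replicate 2 (0.00717) or tHet replicate 3 (0.00197). So it was in a fit of only the 6 libraries compared (0.00442) and with replicate number as a block (0.000881). The numbers did not consistently pair the libraries. Other settings moved it away from the threshold: without Tet tcKO replicate 3 it was −0.77 (adjusted p = 0.0849) and −0.85 (adjusted p = 0.0646), without Cre− replicate 2 it was −0.82 against Cre− (adjusted p = 0.0985), and without tHet replicate 1 it was −0.95 against tHet (adjusted p = 0.0846). With no filter on low values the adjusted p was 0.0645 and 0.047, and with CT010467.1 out of the totals the differences were −0.80 (adjusted p = 0.0193) and −0.90 (adjusted p = 0.0126).

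*Casz1* (ENSMUSG00000028977.17, plus strand of chromosome 4, 148804429 to 148954889), a zinc finger protein that acts in progenitors and in rod nuclei, read 248, 281 and 270.4 CPM in Cre−, 320.1, 362 and 236 in tHet and 236, 245 and 149 in Tet tcKO. Tet tcKO was below every Cre− library, by a small margin in replicate 2, and overlapped tHet. The differences were −0.37 against Cre− (−0.87 to 0.13, adjusted p = 0.529) and −0.55 against tHet (−1.05 to −0.06, adjusted p = 0.219), and neither was called. The size moved with Tet tcKO replicate 3: without that library they were −0.15 (adjusted p = 0.761) and −0.33 (adjusted p = 0.3565). With CT010467.1 out of the totals Tet tcKO read 236, 245 and 209 CPM and the differences were −0.21 (adjusted p = 0.4775) and −0.41 (adjusted p = 0.1326), with the highest Tet tcKO library just below the lowest tHet library.

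*Prdm1* (ENSMUSG00000038151.13, minus strand of chromosome 10, 44437177 to 44528501), which encodes the zinc finger repressor BLIMP1, read 10.2, 18.8 and 12.8 CPM in Cre− and 15.6, 20.8 and 9.29 CPM in tHet. It read 56.1, 53.5 and 39.3 CPM in Tet tcKO, above every control library. The log2 difference was 1.82 (SE 0.29, adjusted p = 0.000336) against Cre− and 1.73 (SE 0.29, adjusted p = 0.00065) against tHet. Leaving out Tet tcKO replicate 1 gave 1.73 against Cre− (adjusted p = 0.00585) and lost the call against tHet, at 1.63 with an adjusted p of 0.0105. With CT010467.1 out of the totals the Tet tcKO libraries read 56.1, 53.5 and 55.1 CPM, and both calls stood, at 1.98 (adjusted p = 0.000658) and 1.87 (adjusted p = 0.00113).

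**Figure D2:**
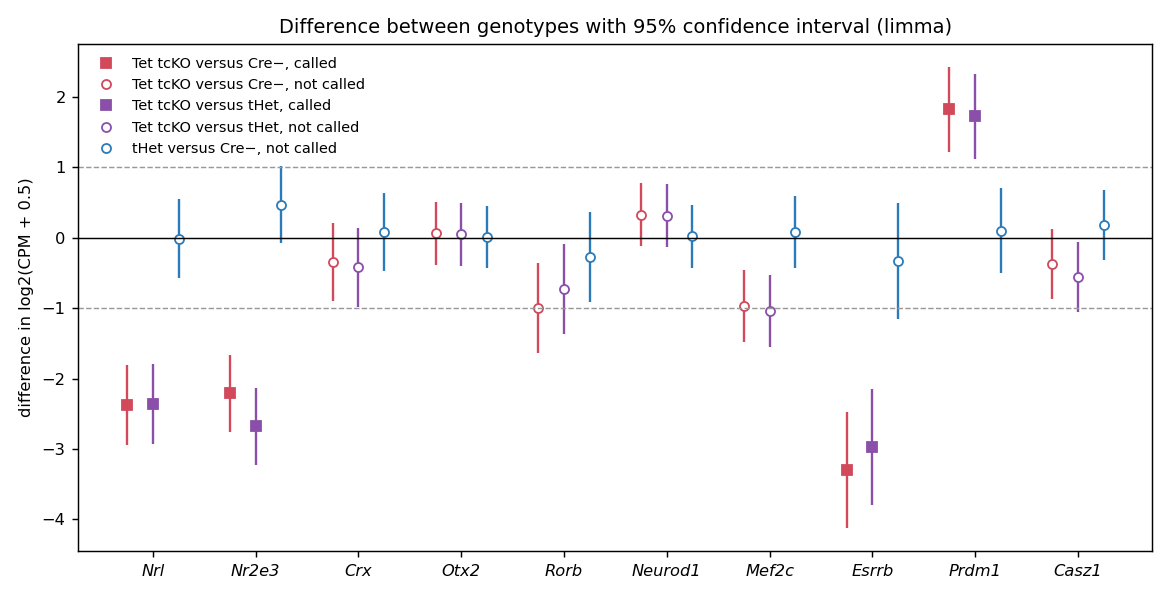
Difference in log2(CPM + 0.5) between genotypes for each factor, with 95% confidence intervals from limma over 3 libraries per genotype; filled squares were called, open circles were not, and dashed lines mark a difference of 1 in either direction. Nrl, Nr2e3 and Esrrb lie below −2 and Prdm1 above 1 in both comparisons of Tet tcKO, while the tHet versus Cre− differences lie between −0.33 and 0.47.

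Ordering the libraries without a test, 7 members were below every Cre− library in Tet tcKO (9.60% of all genes tested were) and 2 were above (10.0%), with *Otx2* overlapping; 19.6% of genes did not overlap in either direction. Against tHet, 4 members were below (9.68%), 1 was above (7.35%) and 5 overlapped, beside 17.0% of genes that did not overlap. These orders depended on the scaling of Tet tcKO replicate 3 and, against tHet, also on that of tHet replicate 3. Without CT010467.1, tHet replicate 3 moved from 972 to 1009 CPM for *Crx* and from 236 to 245.3 CPM for *Casz1*. With CT010467.1 out of the totals, 7 members were below every Cre− library (8.12% of all genes were), 3 were above (23.4%) and 0 overlapped. Against tHet under that scaling, 6 were below (8.70%), 2 were above (18.9%) and 2 overlapped, *Otx2* and *Rorb*. At an unadjusted p under 0.05, 6 members differed from Cre− (16.1% of genes), namely the called ones with *Rorb* and *Mef2c*, and 7 differed from tHet (17.5%), with *Casz1* added. Replicate 3 was the lowest Tet tcKO library for 7 of the 10 members and the lowest tHet library for 9 of them, *Nr2e3* being the exception in tHet.

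The tHet retinas, which keep an intact copy of each *Tet* gene but carry the transgene, were compared with Cre− to see how far the controls differed from each other. None of the 10 members was called by limma (0 called, against 0.0422% of all genes), by edgeR or by DESeq2, and 0 had an unadjusted p under 0.05 (4.55% of genes). *Nr2e3* was above every Cre− library in all tHet libraries, as 5.78% of genes were (11.1% did not overlap in either direction), with a log2 difference of 0.47 (−0.07 to 1.02, adjusted p = 0.9998). The other 9 members overlapped, and their differences ran from −0.33 for *Esrrb* (−1.15 to 0.50) to 0.18 for *Casz1* (−0.32 to 0.68). With 3 libraries a side these intervals leave room for differences of up to about 1 on the log2 scale in either direction.

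Ratios within a library do not depend on how its total was scaled, so each factor was also expressed as a percentage of *Crx* CPM. *Nrl* was 44.6%, 48.1% and 40.6% of *Crx* in Cre−, 52.2%, 35.9% and 38.4% in tHet and 6.40%, 14.7% and 13.4% in Tet tcKO. The log2 ratio of *Nrl* to *Crx* was lower in Tet tcKO, with a difference of −2.03 from Cre− and −1.94 from tHet. *Nr2e3* was 19.9%, 27.7% and 25.5% in Cre−, 32.9%, 24.5% and 39.4% in tHet and 3.68%, 8.73% and 8.82% in Tet tcKO, a log2 difference of −1.87 and −2.26. Neither ratio overlapped between Tet tcKO and either control, and each exact two-sided permutation test gave p = 0.1, which is the smallest p that 3 against 3 libraries allow.

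*Prdm1* varied little among mutant libraries on this scale, at 5.65%, 5.45% and 5.69% of *Crx* in Tet tcKO, against 0.939% to 1.62% in Cre− and 0.956% to 1.43% in tHet. *Otx2* was 14.5%, 14.4% and 15.6% of *Crx* in Tet tcKO, 11.3%, 11.1% and 11.2% in Cre− and 9.96% to 11.8% in tHet, so on this scale it did not overlap (log2 ratio difference 0.40 from Cre−). In CPM the log2 difference from Cre− was 0.06 for *Otx2* and −0.34 for *Crx*. With CT010467.1 out of the totals it was 0.22 for *Otx2* and −0.18 for *Crx*. The part of each gene in this ratio therefore depended on the scaling. *Neurod1* was 28.7% to 36.6% in Tet tcKO and 17.1% to 21.9% in Cre− (0.67). Against Cre−, the exact permutation p of the *Otx2* and *Neurod1* ratios was 0.1, the smallest possible. *Casz1* overlapped between the genotypes, with 23.8%, 25.0% and 21.6% in Tet tcKO and 22.8%, 24.2% and 24.9% in Cre− (−0.03, exact permutation p = 0.7). *Esrrb* was 29.5% to 37.3% in Cre− and 1.51%, 9.53% and 5.17% in Tet tcKO (−2.96), and the log2 ratio differences from Cre− were −0.66 for *Rorb* and −0.62 for *Mef2c*.

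**Figure D3:**
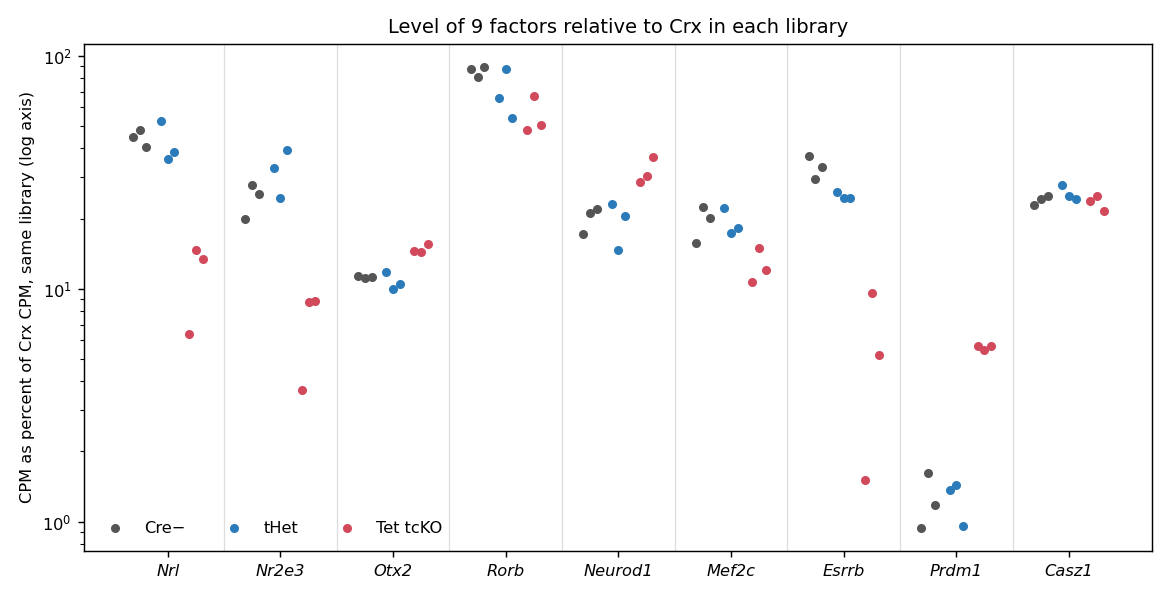
CPM of 9 factors as a percentage of the CPM of Crx in the same library, on a log axis, with 1 point per library and genotypes in grey (Cre−), blue (tHet) and red (Tet tcKO). Nrl runs from 35.9% to 52.2% in the 6 control libraries and from 6.40% to 14.7% in Tet tcKO, Prdm1 runs from 5.45% to 5.69% in Tet tcKO, and Casz1 overlaps among the genotypes.

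Levels of different genes were compared only per length, as CPM per kb of annotated exon. In Cre− retinas *Crx* was the most abundant at 351 ± 13.6 CPM per kb (SD, n = 3). *Nrl* (86.8), *Rorb* (86.2), *Neurod1* (81.5), *Nr2e3* (80.5) and *Esrrb* (61.0) followed, each overlapping the next, and *Otx2* (29.4), *Casz1* (21.8), *Mef2c* (13.7) and *Prdm1* (2.50) came last, each apart from the next. The tHet order differed in the middle, with *Nr2e3* next to *Crx* at 110.3 CPM per kb and *Nrl*, *Neurod1*, *Rorb* and *Esrrb* overlapping in turn from 87.4 to 49.1. In Tet tcKO, *Crx* was still first at 281 ± 54.2 CPM per kb, *Neurod1* came next at 102, followed by *Rorb* at 44.6. *Nr2e3* (18.1), *Nrl* (17.6) and *Casz1* (17.2) overlapped one another, and *Otx2*, at 31.0, was higher on average but overlapped *Nr2e3*. *Prdm1*, at 8.89 CPM per kb, was no longer last and overlapped *Esrrb* (7.95), which in turn overlapped *Mef2c* (7.10).

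**Figure D4:**
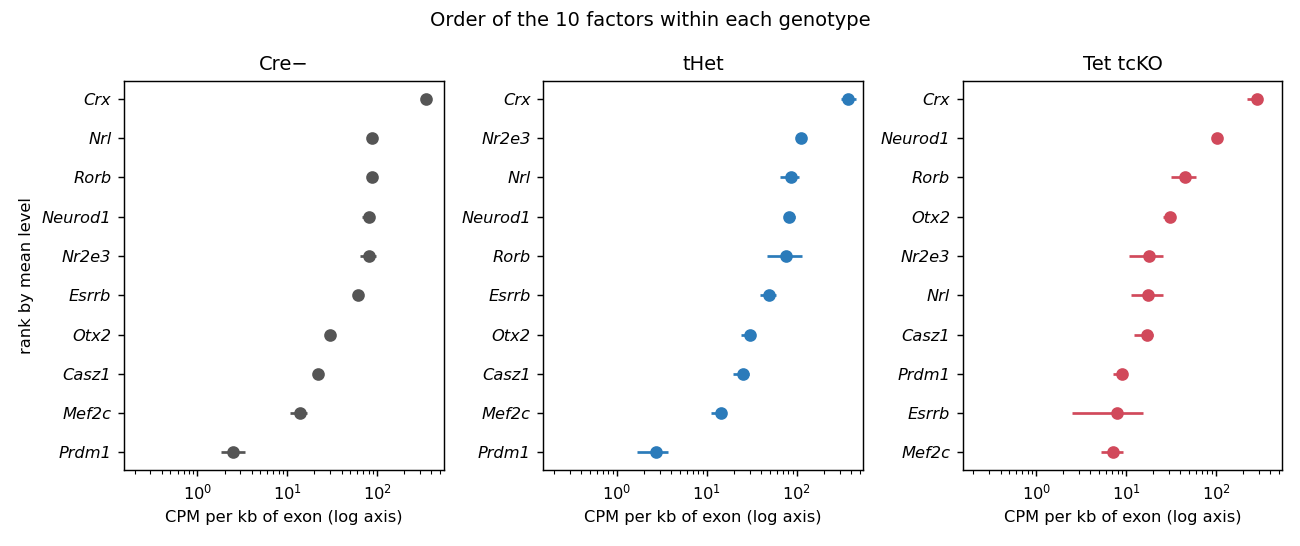
Mean CPM per kb of exon (points, log axis) and the range over 3 libraries (lines) of the 10 factors, ranked from the highest at the top in each genotype. Crx is first in all panels, at 351, 376 and 281 CPM per kb in Cre−, tHet and Tet tcKO, while Nrl moves from 86.8 in Cre− to 17.6 in Tet tcKO.

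Other regulators known to act in photoreceptor precursors were counted from a list of 32 genes, 30 of which were tested. Against Cre−, 5 were called higher, 0 lower and 25 were not called, with a median of 0.24. They were *Rxrg* (2.41, adjusted p = 1.79e-05), a retinoid receptor of cones, *Notch1* (1.26, adjusted p = 0.000678), the receptor that restrains photoreceptor fate in progenitors, *Sox11* (1.61, adjusted p = 0.00132), *Sall3* (1.67, adjusted p = 0.00158), a zinc finger protein of cones, and *Sox4* (1.34), the last named after its value was seen. Among those not called, *Pax6* gave 0.52, *Rora* −0.46 and *Neurod4* 0.21. Against tHet, 4 were called higher and 2 lower; the lower ones, named after their values were seen, were *Samd7* (−1.18) and *Samd11* (−1.45), which encode SAM-domain proteins of rods.

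Among 21 relatives of the members in their own protein families, *Nr2f1* was called higher (1.31, adjusted p = 0.00165) and the other 20 were not called against Cre−, with a median of −0.04. Among the relatives with the highest levels, *Mef2d* gave 0.03 and *Mef2a* −0.30, beside −0.97 for *Mef2c*, and *Esrrg* gave −0.51 beside −3.30 for *Esrrb*. The contrast between a member and its relative was not tested.

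Markers of the cell types that use these factors were counted beside them. Of 17 rod genes, 14 were called lower against Cre− and 0 higher, with a median of −2.33, and their summed level was 5405 to 10266 CPM in Tet tcKO against 28800 to 32384 CPM in Cre− and 26063 to 31356 CPM in tHet. *Cnga1* (−2.46), the rod channel subunit, and *Pde6b* (−2.24), a rod phosphodiesterase subunit, were among them. The highest rod sum of Tet tcKO was in replicate 2. That library was also highest for 7 of the 10 members and for *Tet1*, *Tet2* and *Tet3*. Replicate 2 was likewise the highest library for 8 members in Cre− and 6 in tHet, and for these *Tet* genes in each control. The reason was not tested. Of 12 cone genes, 8 were called higher, *Cngb3* (3.65) and *Gnat2* (1.91) among them, and 2 lower (*Kcne2*, −2.38, and *Pde6h*, −2.95), with a summed level of 3006 to 4256 CPM against 915 to 1040 CPM in Cre−. Of 11 genes shared by rods and cones, 6 were called lower and 0 higher. The part of these markers in the members' differences was not tested.

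Cell types outside the photoreceptor layer express several members, so their markers are given too. Of 10 markers of bipolar cells, which use *Otx2*, 1 was called higher (*Cabp5*, 1.76) and 3 lower (*Bhlhe23*, −2.20, *Prkca*, −1.34, and *Trpm1*, −2.16), and the summed level of 1125 to 1962 CPM in Tet tcKO overlapped the 1832 to 2103 CPM of Cre−. Amacrine (1 of 9 lower, *Slc6a9*), horizontal (1 of 5 lower, *Prox1*), ganglion cell (0 of 8) and Müller glia markers (*Apoe* higher, *Rlbp1* and *Glul* lower, of 8) are to be read beside the background of 3.60%. Microglial (1 of 8 higher, *Cx3cr1*), endothelial (0 of 7) and pigment epithelium markers (1 of 6 lower, *Rgr*) had small sums, at most 68.1, 278 and 177 CPM in any library, and lymphocyte markers at most 19.1 CPM, with 1 of 6 tested and not called and 3 at 0 in some library. These calls are against Cre−. Against tHet, 1 bipolar marker was called higher (*Cabp5*, 2.46) and 0 lower. *Prox1* (adjusted p = 0.0213) and *Cx3cr1* (adjusted p = 0.283) were not called there, while *Slc6a9*, *Apoe*, *Rlbp1*, *Glul* and *Rgr* were. Of the ganglion cell markers 1, and of the pigment epithelium markers 3, were called lower against tHet.

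The genes whose levels followed *Nrl* most closely over the 9 libraries were *Cdr2* (Pearson's r 0.997), *Grtp1* (0.995), *Ybx3* (0.994), *Fscn2* (0.993) and *Fam160a1* (0.993). Among the members, *Esrrb* (0.977), *Nr2e3* (0.969) and *Mef2c* (0.918) were nearest to *Nrl*, *Otx2* gave −0.05 and *Prdm1* ran the other way (−0.84). *Prdm1* was followed most closely by *Nr6a1* (0.996), *Adamts6* (0.995), Gm37824 (0.993), *Adamts18* (0.989) and *Hey2* (0.988), and among the members by *Neurod1* (0.82). These values describe likeness only, because the libraries share genotype and scaling.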

How the data were processed

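RNA from P21 retinas was depleted of ribosomal RNA and made into stranded libraries. Per the submitters' processing notes, the tools included Trim Galore 0.6.7, STAR 2.7.0f, HTSeq 0.11.2 and edgeR 4.2.2, with the build mm10; the annotation release and the strand setting of counting are not given in the sources used here. The authors deposited CPM, divided by each library's plain total, for 55487 genes, beside fold changes and p-values of their own comparisons, which were not used. All positive values (100%, within 0.01 of a read) were whole multiples of 1 read, worth 0.0474 to 0.104 CPM, so reads were recovered. Identifiers were matched to GENCODE M21 without versions (55227 of 55487) for positions, exon lengths and overlaps.

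Genotypes and replicate numbers came from the labels. Genes reaching 0.5 CPM in 3 or more libraries entered limma 3.58.1 (R 4.3.3; intensity trend) on log2(CPM + 0.5), with all 9 libraries in 1 fit and Benjamini-Hochberg adjustment over 21330 genes. Alternatives used edgeR 4.0.16, DESeq2 1.42.0, other scalings, filters and pseudocounts, and each library left out. The fits were tested on simulated counts. Replicates are separate pools of animals, none held identical values, and p-values measure the spread between these pools. The members, lists, motifs and tests were chosen with earlier results of these data known. Named genes were all members, up to 4 called genes per direction of each list by adjusted p, up to 3 abundant regulators or relatives not called, and the 5 genes most like *Nrl* and *Prdm1*.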

Additional observations from a re-analysis of the deposited data

How the results depend on the processing

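Against Cre−, 4 members were called under every alternative fit (pseudocounts of 0.1 and 1, no filter or 1 CPM, TMM scaling, CT010467.1 left out, edgeR, DESeq2, the replicate block, only the 6 libraries compared, no fold threshold) and 4 to 5 when 1 library was left out; against tHet these counts were 4 to 5 and 3 to 5, and between the controls 0 throughout. *Nrl* and *Nr2e3* kept their calls in all of them. The Nrl to Crx ratio of tHet versus Cre− ran from −0.26 to 0.016 without 1 library, and the sign of the differences that are near 0 turned in some settings. For *Nrl* in tHet versus Cre− it was 0.0074 with CT010467.1 left out of the totals. With TMM, edgeR and DESeq2, *Otx2* gave −0.044, −0.044 and −0.049 there, and *Neurod1* −0.039, −0.031 and −0.034. Without 1 library, *Otx2* ran from −0.014 to 0.20 against Cre− and from −0.10 to 0.18 against tHet; in tHet versus Cre−, *Nrl* ran from −0.16 to 0.18, *Crx* from −0.073 to 0.22, *Otx2* from −0.087 to 0.17, *Rorb* from −0.61 to 0.034, *Neurod1* from −0.11 to 0.10, *Mef2c* from −0.085 to 0.25 and *Prdm1* from −0.16 to 0.40. The cause was not tested.

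Counts over all genes moved more. Tet tcKO versus Cre− had 768 calls, 417 with no filter and 331 to 982 without 1 library, being lowest without Tet tcKO replicate 1 (331), Tet tcKO replicate 3 (389) or Cre− replicate 3 (423). Tet tcKO versus tHet had 640 calls, 351 with no filter, 1046 with DESeq2, 1013 with 6 libraries and 252 to 973 without 1 library, the extremes being without Tet tcKO replicate 1 (252) and without tHet replicate 3 (973). The controls differed in 9 genes, in 1 to 40 under other settings and in 0 to 17 without 1 library. Leaving CT010467.1 out turned 434 higher and 334 lower calls against Cre− into 613 and 222, and 297 and 343 against tHet into 427 and 215, while the members called stayed at 1 higher and 3 lower.

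Replicate numbers did not consistently pair the libraries. Of 9 same-number pairs, 5 had deviations correlated above 0.1 (range −0.35 to 0.56), and 5 of 9 libraries correlated best with their own number. With the replicate block, 4 members were called against Cre−, 5 against tHet (*Mef2c* added) and 0 between controls, and the counts over all genes were 1127, 1125 and 40. The 3 pools per genotype and 3 reads of counting error, at most 0.312 CPM, limit what can be seen. The lowest member values were those of *Prdm1* in the controls (9.29 to 20.8 CPM) and *Esrrb* in Tet tcKO replicate 1 (15.0 CPM).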
